A study of Homo sapiens with 4 samples.

Results

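At 1081 promoter intervals, a peak of the histone variant H3.3 was listed in human lung fibroblasts 3 h after UV-C and no H3.3 peak was listed within 5 kb without UV. They were chosen by the presence of an interval in the UV list and its absence from the list without UV, among intervals whose nearest edge lay within 1 kb of the 5′ end of a protein-coding gene on chromosomes 1 to 22 and X. Of the 9966 promoter intervals of the UV list, 10.8% met the rule, and of the 77173 distinct UV intervals on these chromosomes the 1081 are a small part. They lay at 1129 of 19970 protein-coding genes, which is 5.65% of all genes tested and 12.6% of the 8967 genes with any promoter interval after UV. These percentages follow from the rule and are given as a description.

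The cells were MRC5_VA, an SV40-immortalized line of human lung fibroblasts (the sample labels name them MRC5_WT, wild-type cells of the line MRC5), either untreated or irradiated with 10 J/m2 UV-C. Chromatin was fixed with formaldehyde, sonicated and immunoprecipitated with an antibody to H3.3, and each library was made from a pool of DNA from 3 independent replicates. Each condition thus had 1 library and no replicate, and counts and distributions are given without any test or p-value. Ranges in brackets are 95% intervals of a share (exact, Clopper-Pearson) and reflect counting error alone. The peak lists carry no read numbers, so the depth of the libraries is unknown, and the loss or gain of a peak cannot be told apart from a difference in depth or in the quality of the immunoprecipitation. Marker genes did not tell the labelled cell type from epithelium. After UV, 7 of 13 fibroblast markers (among them *COL1A1*, *FN1* and *VIM*) and 3 of 6 epithelial markers (*KRT8*, *KRT18* and *SFTPC*) had a promoter interval. The counts were 1 of 5 for blood and 0 of 3 for endothelial markers. The fibroblast markers *COL3A1*, *DCN*, *LUM*, *TBX5* and *THY1* had none in either list. A peak is not a measure of expression.

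H3.3 is the replication-independent form of histone H3. HIRA and its partners deposit it at active promoters, gene bodies and enhancers throughout the cell cycle, and ATRX with DAXX at repeats and telomeres. After UV-C, HIRA is known to add new H3.3 to damaged chromatin during nucleotide excision repair. Promoters of most widely expressed genes lie in CpG islands, GC-rich stretches in which nucleosomes are displaced at the start site and reassembled just downstream of it.

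The remaining UV promoter intervals served for comparison. Of these, 7027 overlapped an interval of the list without UV and are called shared, and 1858 had their nearest interval without UV at 1 to 5000 bp. The reverse set consisted of 241 of 8431 promoter intervals without UV, or 2.86% (2.51 to 3.24), that had no UV interval within 5 kb. The UV-only set was thus 4.49 times as large as its reverse (1.74 times with the start of any transcript in place of the gene, 10.3 times for intervals with a −log10 q of at least 5). Over the chromosomes used, the list after UV was the shorter of the pair, with 77173 distinct intervals against 88806 without UV. At promoters it was the longer, with 9966 intervals against 8431. Promoter peaks were called more weakly without UV. Promoter intervals without UV that overlapped a UV interval had a median −log10 q of 10.9, a fold enrichment of 4.55 and a width of 534 bp. Shared intervals after UV had 19.6, 5.83 and 701 bp. Whether this difference between the libraries underlies the ratio was not tested.

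The DNA under the strongest UV-only peaks was GC-rich and rich in CpG. The 10 of highest −log10 q had interval GC contents from 60.7% at *ARL15* to 76.5% at *PALS2*. Their ratio of observed to expected CpG around the summit ran from 0.644 to 1.06. The sequences below, read from hg38 on the strand of the gene from 5′ to 3′, show stretches of up to 120 bases either just upstream of the annotated 5′ end or around the summit, and leave out exons of protein-coding genes. The upstream stretches of *GUCY1A2* and *AKTIP* lie outside the peak intervals, and those of *NIT2* and *PALS2* lie inside. Capitals mark each GC box, searched as GGGCGG on both strands (CCGCCC on the printed strand), the core of sites bound by SP1 and related factors. The first 6 come from 5 of the 10 members with the highest −log10 q, picked to show GC boxes and the contrast between 5′ end and summit, and the last 2 show the members of highest and lowest GC content.
*GUCY1A2*, upstream, minus strand, chr11:107018477-107018596: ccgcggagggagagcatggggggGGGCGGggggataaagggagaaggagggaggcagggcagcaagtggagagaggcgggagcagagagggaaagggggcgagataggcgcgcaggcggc
*AKTIP*, upstream, minus strand, chr16:53504412-53504531: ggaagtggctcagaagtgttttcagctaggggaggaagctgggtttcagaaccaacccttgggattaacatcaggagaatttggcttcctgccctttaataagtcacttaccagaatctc
*AKTIP*, around the summit, minus strand, chr16:53503694-53503813: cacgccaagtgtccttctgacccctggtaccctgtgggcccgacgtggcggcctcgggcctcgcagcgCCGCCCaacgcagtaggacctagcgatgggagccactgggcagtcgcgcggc
*ZBTB20*, around the summit, minus strand, chr3:115146964-115147083: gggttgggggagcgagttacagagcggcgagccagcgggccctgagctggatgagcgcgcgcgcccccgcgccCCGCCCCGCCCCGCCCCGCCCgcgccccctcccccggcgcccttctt
*NIT2*, upstream, plus strand, chr3:100334619-100334738: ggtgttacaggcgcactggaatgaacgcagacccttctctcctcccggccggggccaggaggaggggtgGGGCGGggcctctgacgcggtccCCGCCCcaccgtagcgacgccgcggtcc
*PALS2*, upstream, plus strand, chr7:24573148-24573267: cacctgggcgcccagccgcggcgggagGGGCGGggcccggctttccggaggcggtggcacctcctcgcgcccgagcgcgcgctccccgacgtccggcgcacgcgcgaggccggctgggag
*EBF4*, around the summit, plus strand, chr20:2692492-2692611: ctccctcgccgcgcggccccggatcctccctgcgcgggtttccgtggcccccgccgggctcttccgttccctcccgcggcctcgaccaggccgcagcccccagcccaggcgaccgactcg
*ANKRD1*, around the summit, minus strand, chr10:90922030-90922149: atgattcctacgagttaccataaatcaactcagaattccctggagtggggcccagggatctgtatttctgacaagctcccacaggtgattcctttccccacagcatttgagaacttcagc

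At *AKTIP* the stretch upstream of the annotated 5′ end had 46.7% GC and 0 CpG, whereas the stretch around the summit, 657 bp downstream of that 5′ end, had 71.7% GC and 13 CpG. At *ZBTB20* the summit window held 4 GC boxes in a row and 18 CpG. The *EBF4* window, at 79.2% GC, also held 18 CpG but no GC box, and the *ANKRD1* window, at 47.5% GC, held 1 CpG and no GC box.

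The following 10 members are described individually because their −log10 q, the significance of a peak against background in its own library, was the highest of the 1081.

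The first was at *GUCY1A2* (ENSG00000152402), a subunit of the soluble guanylate cyclase that senses nitric oxide. Its interval spanned 702 bp (chr11:107017566-107018267) with a fold enrichment over background of 11.9, a −log10 q of 52.9 and a GC content of 75.9%, and its summit lay in a coding exon 570 bp downstream of the 5′ end. *AKTIP*, which encodes a protein of the FTS-Hook complex, followed with a −log10 q of 46.0 and a summit in an intron. *ZBTB20*, a zinc finger repressor, had the highest fold enrichment of all members, 15.7, with a −log10 q of 42.6 and a summit 268 bp downstream. *STK38L*, a kinase of the Hippo-related NDR family, had a −log10 q of 41.9, and its summit was 355 bp from the 5′ end of the gene but 15 bp from the start of an annotated transcript. No other member reached a −log10 q of 40, and the summits of these 4 were all downstream.

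The remaining 6 of the 10 had −log10 q values between 37.2 and 32.9. The interval with a −log10 q of 37.2 lay at *VPS26B*, a retromer subunit, and *NCAPD3*, a condensin II subunit, whose 5′ ends overlap on opposite strands. That with a −log10 q of 36.2 lay at *TPR*, a nuclear pore basket protein, and *ODR4*, which are arranged head to head with 145 bp between their 5′ ends. *NIT2*, an amidase, had a fold enrichment of 12.7 and was the nearest of the 10 to an interval without UV, at 5760 bp. *PALS2*, a scaffold protein of cell junctions, had the widest interval of the 10, 1236 bp with 2 summits. *ARL15*, a small GTPase, and *FKBP9*, an endoplasmic reticulum prolyl isomerase, completed the set with −log10 q values of 34.1 and 32.9. The summit was downstream of the nearest 5′ end in all 10 (for the pairs, that of *VPS26B* and *TPR*), by 153 bp at *FKBP9* to 657 bp at *AKTIP*, and 3 of the 10 summits were in coding exons.

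Most members were far weaker than these. Their median −log10 q was 6.65 (quartiles 4.13 and 10.5, range 1.31 to 52.9), 370 of them were under 5, and 48 reached 20. Shared promoter intervals of the same library had a median −log10 q of 19.6, and their median fold enrichment was 5.83 against 3.93. The intervals with a neighbour at 1 to 5000 bp were close to the members in strength, with a median of 6.08. The share of UV-only intervals fell along the strength of the UV peak. It was 23.1% (19.8 to 26.6) of the 607 UV promoter intervals with a −log10 q under 3, 18.2% (16.7 to 19.9) of 2292 between 5 and 10, 10.1% (8.94 to 11.4) of 2423 between 10 and 20, and 0.256% (0.0697 to 0.653) of 1564 at 40 or more. In the reverse set the shares also fell with strength but were lower throughout, from 10.2% (8.19 to 12.6) of 761 intervals under 3 to 0.436% (0.200 to 0.827) of 2062 between 10 and 20. The −log10 q of each list depends on that library's depth, so classes of equal −log10 q need not be equal in strength between the lists.

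**Figure D1:**
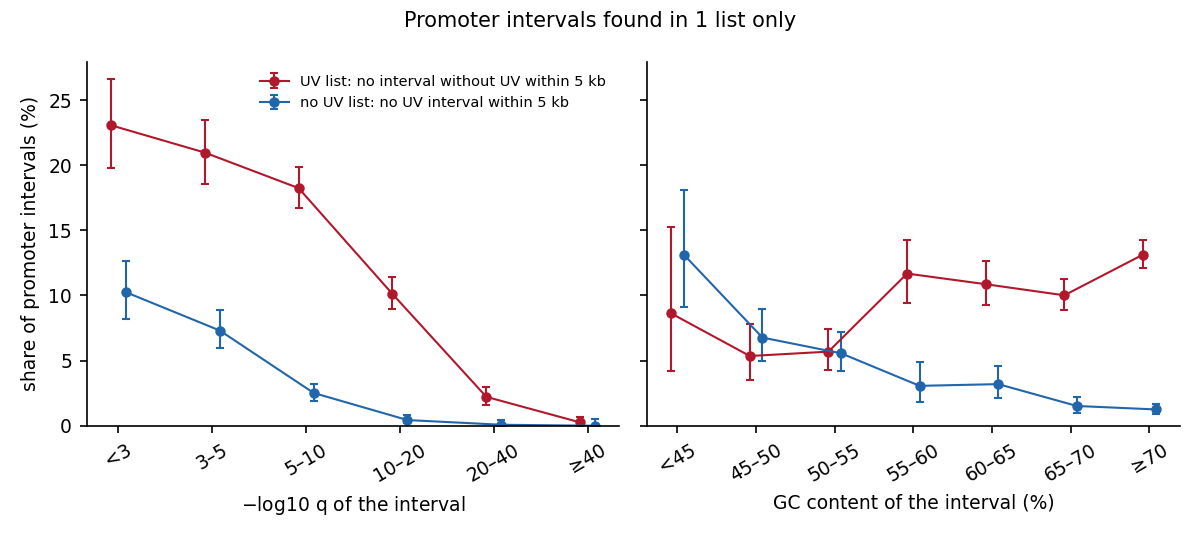
Share of promoter intervals present in 1 list with no interval of the other list within 5 kb, in classes of −log10 q (left) and of GC content (right), for the UV list in red and the list without UV in blue; bars are exact 95% intervals for counting error, and lines join the classes. The UV-only share falls from 23.1% to 0.256% along −log10 q, and at a GC content of 70% or more it is 13.1% against 1.25% in the reverse set.

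GC content was not used by the rule. The members had a median GC content of 69.4% (quartiles 64.0 and 73.4, range 42.9 to 82.6), compared with 68.4% in shared intervals, 66.1% in those with a neighbour at 1 to 5000 bp and 54.3% in the reverse set. The small difference from shared intervals depended on the window and the rule: in equal windows of 301 bp around the summit the medians were 70.8% in members and 71.1% in shared intervals, and with a gap of 1 kb in place of 5 kb the difference over whole intervals was −0.0296 percentage points. All UV intervals had a median of 50.8%, the 7039 UV-only intervals outside promoters 50.7%, and 301 bp windows centred on all protein-coding 5′ ends 62.8%. A GC content of at least 70% was found in 511 of the 1081 members, or 47.3% (44.3 to 50.3), in 39.7% (38.6 to 40.9) of shared intervals and in 17.8% (13.2 to 23.3) of the reverse set. A GC content under 50% was found in 3.24% (2.27 to 4.47) of members, 6.06% (5.52 to 6.65) of shared intervals and 31.1% (25.3 to 37.4) of the reverse set. UV-only and no-UV-only promoter intervals thus differed by more than their counting error in both classes, without a replicate of either library. Whether the libraries differ in how well GC-rich fragments were recovered was not tested.

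Read the other way, the UV-only share of UV promoter intervals was 5.35% (3.49 to 7.80) at a GC content of 45 to 50%, 11.7% (9.40 to 14.3) at 55 to 60% and 13.1% (12.1 to 14.2) at 70% or more. The corresponding shares of the list without UV went down, from 6.77% (4.96 to 8.98) to 3.06% (1.79 to 4.86) and 1.25% (0.908 to 1.68). The shares of the lists differed by less than the counting error at 45 to 50% and by far more than it at 70% or more.

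**Figure D2:**
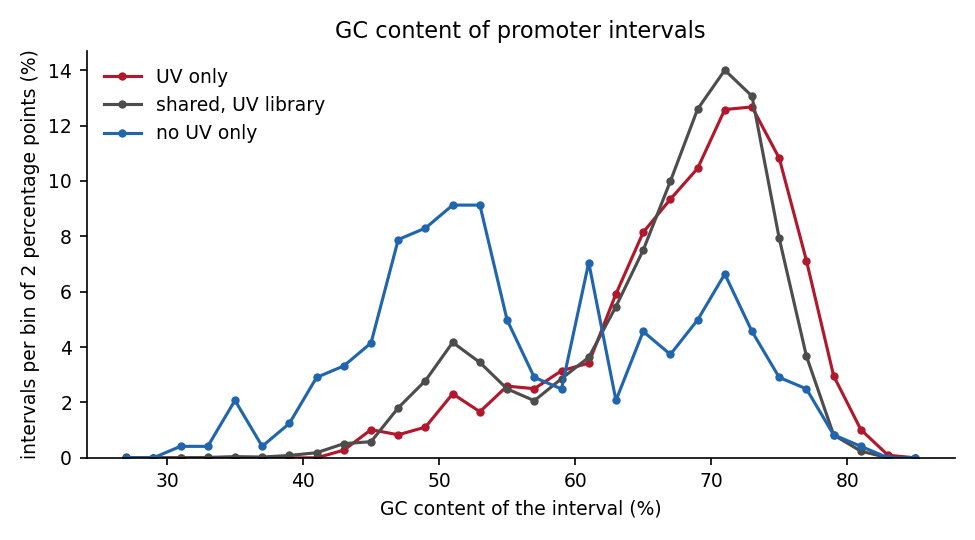
GC content of promoter intervals, as the percentage of each set in bins of 2 percentage points; UV-only intervals (n = 1081) in red, shared intervals of the UV list (n = 7027) in grey and no-UV-only intervals (n = 241) in blue. The UV-only and shared curves both peak near 70% GC, while most of the no-UV-only curve lies below 60%.

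The highest GC contents among members were at *EBF4* (82.6%), a transcription factor of the early B-cell factor family, *ILKAP* (81.5%), a protein phosphatase, and *CDYL2* (81.5%), a chromodomain protein. The lowest were at *ANKRD1* (42.9%), a stretch-responsive ankyrin repeat protein and YAP target, *FCRL6* (42.9%), an Fc receptor-like protein of lymphocytes, and *PLAC8L1* (43.1%). The *EBF4*, *ILKAP* and *CDYL2* peaks had −log10 q values of 6.48, 11.6 and 10.8, and the 3 at low GC were near the limit of detection, at 1.51, 1.51 and 1.68. In 301 bp windows around the summit the median ratio of observed to expected CpG was 0.815 in members, 0.822 in shared intervals and 0.541 in the reverse set, and 84.8% (82.5 to 86.9) of members had both a GC content of at least 50% and a ratio of at least 0.6, compared with 81.9% (80.9 to 82.8) and 44.4% (38.0 to 50.9).

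The GC content of the members varied less with the strength of the peak than that of shared intervals. Below a −log10 q of 3 the median was 66.6% in 140 members and 56.6% in 184 shared intervals. Between 3 and 5 it was 69.1% and 55.8%, between 5 and 10 it was 69.4% and 64.4%, between 10 and 20 it was 70% and 68.5%, and from 20 upwards it was 70.6% in 48 members and 69.6% in 3445 shared intervals. Weak peaks of the UV list were therefore GC-rich when absent without UV and less so when shared. Pooled over all strengths the difference of the medians was 1.00 percentage points. At equal strength, as the mean of the 5 class differences weighted by the number of members in each, it was 6.44, an average chosen after the data were seen.

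Summits lay mostly downstream of the 5′ end. In 773 members, or 71.5% (68.7 to 74.2), the summit was downstream of the nearest protein-coding 5′ end, compared with 68.3% (67.2 to 69.4) of shared intervals, 62.1% (59.8 to 64.3) of those with a neighbour at 1 to 5000 bp and 58.9% (52.4 to 65.2) of the reverse set; the ranges of members and shared intervals overlap. In members, 31.2% (28.4 to 34.0) of summits were 1 to 250 bp downstream and 40.3% (37.4 to 43.3) farther downstream. The median position was 195 bp downstream in members and 211 bp in shared intervals. Member summits were more often close to the start: 41.7% (38.8 to 44.7) of their summits were within 250 bp, against 31.2% (30.1 to 32.3) of shared summits and 24.5% (19.2 to 30.4) of the reverse set. The narrower member intervals nevertheless covered the nearest 5′ end less often, in 35.8% (32.9 to 38.7) against 48.0% (46.8 to 49.1) of shared intervals. The fullest bin of 100 bp was 200 to 300 bp downstream and held 15.7% of members and 11.9% of shared intervals. Measured from the start of any protein-coding transcript, 62.4% (59.5 to 65.3) of members were within 250 bp, compared with 54.9% (53.8 to 56.1) of shared intervals.

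**Figure D3:**
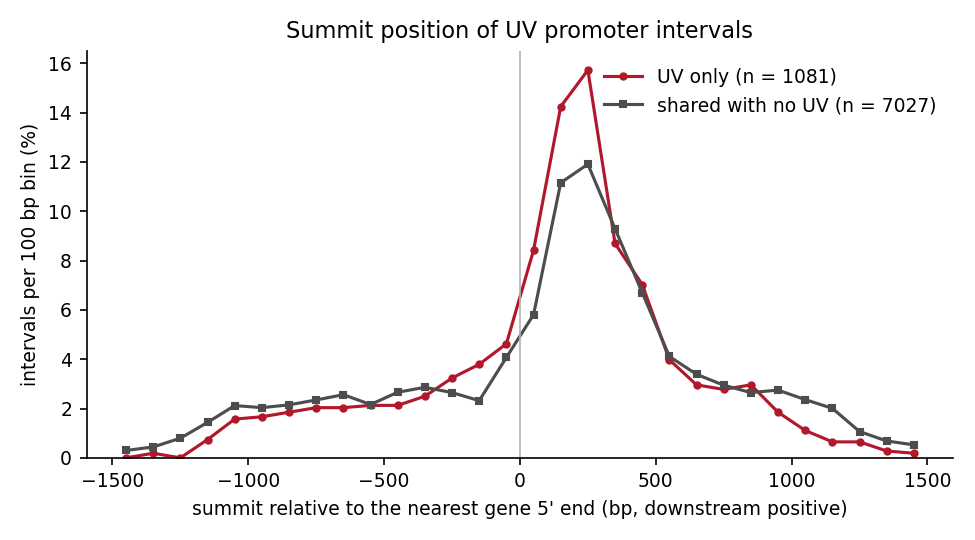
Position of the summit relative to the nearest protein-coding 5′ end (bp, downstream positive), as the percentage of each set in 100 bp bins; UV-only intervals in red, shared intervals of the UV list in grey. Both curves are highest 200 to 300 bp downstream, where the UV-only curve reaches 15.7% and the shared curve 11.9%.

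Position went along with GC content. Of the 85 members with a GC content under 55%, 19 had a downstream summit, or 22.4% (14.0 to 32.7), and the median summit was at −578 bp, upstream of the 5′ end. The share was 68.0% (61.5 to 74.0) of 228 members at 55 to 65%, 76.0% (72.3 to 79.4) of 587 at 65 to 75% and 84.5% (78.4 to 89.5) of 181 at 75% or more. Shared intervals followed the same order, with 27.7% (25.001 to 30.5), 63.3% (60.6 to 65.9), 78.0% (76.7 to 79.3) and 84.2% (81.0 to 87.0). Downstream position within a GC class thus differed between members and shared intervals by no more than the counting error, while closeness to the start differed by more than it in the upper classes. Summits within 250 bp of the 5′ end made up 43.4% (39.4 to 47.6) of members and 36.3% (34.8 to 37.8) of shared intervals at 65 to 75% GC, and 49.7% (42.2 to 57.2) and 35.2% (31.3 to 39.2) at 75% or more. At 55 to 65% the shares, 42.1% (35.6 to 48.8) and 33.8% (31.2 to 36.4), had overlapping ranges, as did those under 55%, 11.8% (5.79 to 20.6) and 5.71% (4.38 to 7.29).

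Within classes of equal strength, weak and middling members also lay closer to the start. Members had the higher median GC content in each of these classes, and strength and GC content were not held equal together. Below a −log10 q of 3, 42.9% (34.5 to 51.5) of members and 23.9% (17.9 to 30.7) of shared intervals had their summit within 250 bp of the 5′ end. For a −log10 q of 5 to 10, 43.1% (38.3 to 48.0) of members and 25.4% (22.9 to 28.0) of shared intervals did, and 73.2% (68.7 to 77.4) and 57.8% (54.9 to 60.6) had it downstream. For 10 to 20 the shares within 250 bp were 40.4% (34.2 to 46.8) and 32.8% (30.6 to 35.0), whose ranges just overlap. From 20 upwards, where 48 members remained, they were 45.8% (31.4 to 60.8) and 34.0% (32.4 to 35.6) and were not distinguishable at that number.

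**Figure D4:**
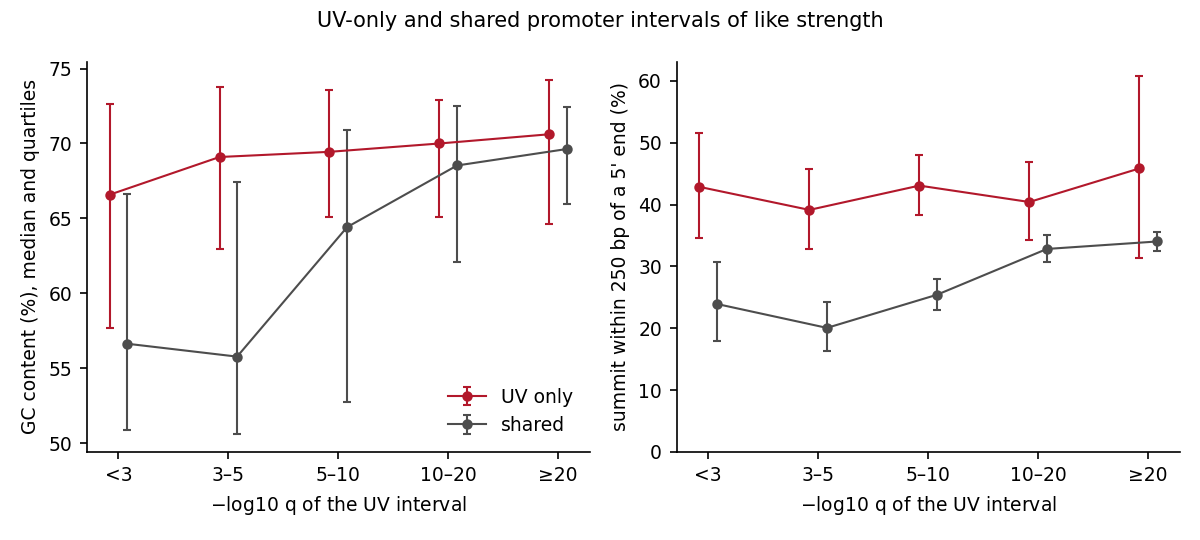
UV-only (red) and shared (grey) promoter intervals of the UV list in classes of −log10 q; left, median GC content with bars from the lower to the upper quartile; right, share of summits within 250 bp of the nearest protein-coding 5′ end with exact 95% intervals. In the class from 3 to 5 the medians are 69.1% and 55.8% GC, and the shares are 39.1% and 20.05%.

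By annotation, the summit was in an intron in 367 members, in the non-coding part of an exon in 297, in a coding exon in 177 and outside protein-coding genes in 240. The coding-exon share, 16.4% (14.2 to 18.7), and the intron share, 34.0% (31.1 to 36.9), differed from those of shared intervals, 17.2% (16.3 to 18.1) and 32.6% (31.5 to 33.8), by less than the counting error. The nearest gene had a median length of 38129 bp in members and 31080 bp in shared intervals.

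The members were narrow, and width, like strength, belongs to the same measurement as the rule. Their median width was 410 bp (quartiles 334 and 555), close to that of intervals with a neighbour at 1 to 5000 bp (389 bp) and below that of shared intervals (701 bp). A width under 500 bp was found in 67.8% (64.9 to 70.6) of members and 27.6% (26.5 to 28.6) of shared intervals, and 985 members had a single summit, 90 had 2 and 6 had 3. At equal strength the difference shrank: from 5 to 10 the median was 391 bp in members and 498 bp in shared intervals, and below 3 it was 389.5 and 403.5 bp. The smallest width, 294 bp, was that of 71 members, among them *STAT4*, a transcription factor of cytokine signalling. The widest were at *EGFR*, the epidermal growth factor receptor (1500 bp, 2 summits, −log10 q 8.06, 74.3% GC), *SOWAHA* (1329 bp, 3 summits) and *CNOT2*, a subunit of the CCR4-NOT deadenylase complex (1291 bp, −log10 q 29.5).

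The distance to the nearest interval without UV, which the rule set to over 5 kb, had a median of 16719 bp. It was under 10 kb in 346 members and over 100 kb in 108. *SLCO3A1*, an organic anion transporter gene, was the farthest at 560995 bp, followed by *PNPLA4* on chromosome X at 548436 bp. Just inside the limit were *WNT7B*, a WNT ligand gene, at 5010 bp and *PRPF39*, a U1 snRNP-associated factor, at 5015 bp, and ENSG00000261717 at 4987 bp was just outside. At the limit of 1 kb from the 5′ end, *CABP7* (999 bp) was just inside and *PEX7* (1001 bp) and *ABR* (1004 bp) just outside. Absence at the promoter did not mean absence from the gene, since 592 of the 1129 genes, or 52.4% (49.5 to 55.4), had an interval without UV centred in the gene itself.

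Of the members, 106 lay within 1 kb of 5′ ends on both strands, or 9.81% (8.10 to 11.7), a share that differed from that of shared intervals, 10.6% (9.85 to 11.3), by less than the counting error. In 64 of the 106 the nearest pair of genes was head to head with a median of 127.5 bp between the 5′ ends. After *NCAPD3*/*VPS26B* and *TPR*/*ODR4*, the highest −log10 q of such a pair was 32.5 at *MAP3K12*/*TARBP2*, a kinase of the JNK pathway and a Dicer partner. Its summit was 381 bp downstream of *TARBP2* and at −1239 bp (upstream) relative to *MAP3K12*. A further member, with a −log10 q of 24.3, had its summit 299 bp downstream of *MAP3K12*. Other pairs were *TRAPPC2*/*OFD1* on chromosome X (−log10 q 22.5), a vesicle tethering subunit and a centriole protein, and *GLUD1*/*SHLD2* (29.7), a mitochondrial glutamate dehydrogenase and a shieldin subunit of double-strand break repair. An interval within 1 kb of both 5′ ends was counted for both genes, and the peak lists do not tell to which of them it belongs. In all, 92 of the 1129 genes had more than 1 member interval.

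Members were not evenly spread over the chromosomes. On chromosome X, 48 of 227 UV promoter intervals were UV-only, or 21.1% (16.0 to 27.0), the highest share of all chromosomes used, and the reverse share was highest there as well, at 7.74% of 168. The next were chromosome 4 with 16.4% (12.5 to 20.9) and chromosome 10 with 15.0% (11.5 to 19.0), and the lowest were chromosome 19 with 6.55% (4.96 to 8.46) and chromosome 17 with 7.15% (5.36 to 9.32). The strongest members on X were at *SYAP1* (−log10 q 24.4), *OFD1* with *TRAPPC2* (22.5) and *ZCCHC18* (19.96).

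Gene families were compared through lists, each as the number of genes with a UV-only interval among the genes with any UV promoter interval, read against the 12.6% over all genes. The lists match gene symbols or stems of symbols and miss family members with other names. They also take in some genes outside the named family, such as the methyltransferase genes *EEF1AKMT4* and *EEF2KMT* among translation factors. Each count and order therefore holds for the list alone. The UV-only share also fell with the strength of the UV peak, and the lists were not compared at equal strength. Ion channel genes had the highest share, 15 of 58 or 25.9% (15.3 to 39.0), and it was above the background by more than the counting error. They included calcium channel genes (*CACNA1F*, *CACNB4*, *CACNA1H* and *CACNG8*) and inward rectifier potassium channel genes (*KCNJ4*, *KCNJ2*, *KCNJ10* and *KCNJ12*). The *CACNA1F* summit was at −979 bp (upstream) relative to that gene and at −1120 bp relative to *CCDC22*. *KCNJ4* had a −log10 q of 18.2 and a GC content of 74.1%, and *CACNB4* a −log10 q of 17.6 and a GC content of 68.5%. C2H2 zinc finger genes, most of them KRAB repressors of transposable elements, had 39 of 203, or 19.2% (14.0 to 25.3). *ZNF181* (−log10 q 23.5, summit 221 bp downstream) and *ZNF84* (18.0, 263 bp downstream) led them, followed by an interval (17.5) within *ZSCAN32*, 233 bp downstream of its 5′ end, that is also within 1 kb of *ZNF174*. In the reverse set, 5 of the 40 ion channel genes with a promoter interval without UV had a no-UV-only interval. Among C2H2 zinc finger genes 11 of 165 had one, and over all genes 261 of 7420. The higher shares of these lists were thus not limited to the UV list. No adjustment was made for the number of lists examined, and zinc finger genes in clusters share much of their sequence.

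MAP kinase cascade genes had 8 of 37, or 21.6% (9.83 to 38.2), an interval that includes the background. The following 7 are named because several act in the JNK and p38 stress branch, a choice made after their values were seen. The upstream kinases *MAP3K12* (−log10 q 24.3 for the interval at its own 5′ end, the stronger interval of 32.5 being nearer to *TARBP2*), *MAP3K7*, also known as TAK1 (11.8), and *MAP3K10* (4.58), the MAP2Ks *MAP2K7* (16.0) and *MAP2K4* (3.68), the kinase *MAPK9*, also known as JNK2 (3.80), and the scaffold *MAPK8IP2* (6.41) each had a UV-only interval. *MAP2K7* and *MAP2K4* both activate JNK, and their summits lay 203 and 523 bp downstream. The other 29 of the 37 genes had a promoter interval in both lists.

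Listed homeobox genes had 8 of 44, or 18.2% (8.19 to 32.7). *LHX3* (−log10 q 20.02), *HOXA4* (14.7) and *POU3F1* (10.5) were the strongest of the list, and *HOXA5* (8.43), *HOXB4* (7.47), *MSX2* (10.1) and *CDX1* (3.04) were among the rest. The 8 intervals had between 69.3% and 75.5% GC. *TLX2* (16.3), *PKNOX1* (12.3) and *ALX4*, homeobox genes outside the list, were members too, the last with a GC content of 53.9%. Listed genes of other developmental factors had 6 of 50, or 12% (4.53 to 24.3), led by *SOX5* (19.6), a factor of cartilage formation, *ATOH7* (16.3), a factor of retinal ganglion cells, and *HEY2* (5.32), a Notch target; the T-box factor gene *EOMES* (12.4), outside the list, was also a member. G protein-coupled receptor genes had 11 of 60, or 18.3% (9.52 to 30.4), among them the adrenergic receptor genes *ADRB1* (8.79) and *ADRA2C* (10.3). *GPR89A*, which was also in this list though it encodes a Golgi pH regulator, has near-identical copies, so that its reads may be misplaced.

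Collagen, laminin and matrix protease genes, counting membrane ADAM genes, had 10 of 56, or 17.9% (8.91 to 30.4). *ADAM23*, a non-catalytic disintegrin, had a −log10 q of 31.9 and a fold enrichment of 11.9, and *COL4A3* and *COL4A4*, the basement membrane collagens, shared 1 interval (9.13) at their common promoter. Tubulin, kinesin and dynein genes had 10 of 58, or 17.2% (8.59 to 29.4), with the motor *KIF3A* (17.0) and the gamma-tubulin complex subunit *TUBGCP5* (16.4) first. Listed cilium and centrosome genes, without *OFD1*, had 11 of 67, or 16.4% (8.49 to 27.5), with *CFAP68* (25.99) and *CEP295* (19.6) first.

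The shares of several larger lists lay nearer the background. Ubiquitin ligase and protease genes had 29 of 210, or 13.8% (9.45 to 19.2), with *RNF145* (−log10 q 29.6), *TRIM26* (26.2) and *FBXW2* (23.6) first. Genes named TMEM had 18 of 116, or 15.5% (9.46 to 23.4), first among them *TMEM169* (30.4), and those named CCDC had 9 of 64, or 14.1% (6.64 to 25.02), first *CCDC93* (25.6). Translation factor and tRNA synthetase genes had 9 of 65, or 13.8% (6.53 to 24.7), with *EIF2B5* (17.3), a subunit of the eIF2B exchange factor, first. Solute carrier genes had 18 of 150, or 12% (7.27 to 18.3), with *SLC35A4* (17.6) first.

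Nucleotide excision repair genes, which remove UV lesions, had 3 of 25, or 12% (2.55 to 31.2), close to the background. They were *LIG3* (−log10 q 9.83), a DNA ligase, *XPA* (5.60), the damage verification factor, and *RFC1* (2.26), the large subunit of the clamp loader. *XPA* had a 302 bp interval with its summit 136 bp downstream of the 5′ end. In 18 of these 25 genes a promoter interval was listed in both conditions.

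Several lists had few or no members, and most of their marked genes had a promoter interval with and without UV. Among them, only the range of cytosolic ribosomal protein genes lay below the background of 12.6%. The ranges of the others include it. Cytosolic ribosomal protein genes had 0 of 49, which allows a share of up to 7.25%, an upper bound below the background, and 41 of the 49 had an interval in both. Immediate early and stress-response genes, which UV induces, had 1 of 34, or 2.94% (0.0744 to 15.3), and 30 had an interval in both. The exception was *KLF4*, a zinc finger factor of growth arrest and reprogramming, with a −log10 q of 4.51, a GC content of 73.7% and a summit 395 bp downstream. Splicing factor genes had 2 of 52, or 3.85% (0.469 to 13.2), namely *LSM7* and *PRPF39*. Replication-dependent histone genes had 3 of 52, or 5.77% (1.21 to 15.9): *H2AC13* and *H2BC13* at a shared interval and *H3C10*, all with near-identical copies that make the placement of reads uncertain. The list of mitochondrial ribosome and respiratory chain genes had 8 of 92, or 8.70% (3.83 to 16.4), with *MRPL16* (12.4) first. Its members included the protein import genes *TOMM7*, *TIMM23B*, *TIMM17B* and *TIMM21*. The list of cadherin and integrin genes had 3 of 33, or 9.09% (1.92 to 24.3), with *ITGA6* (17.4) first, and counted the claudin gene *CLDN15*. Genes of H3.3 and its chaperones had 0 of 6, which allows up to 45.9%. The only marked olfactory receptor gene was not a member, and among fibroblast markers *PDGFRA* was, with a −log10 q of 5.32.

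**Figure D5:**
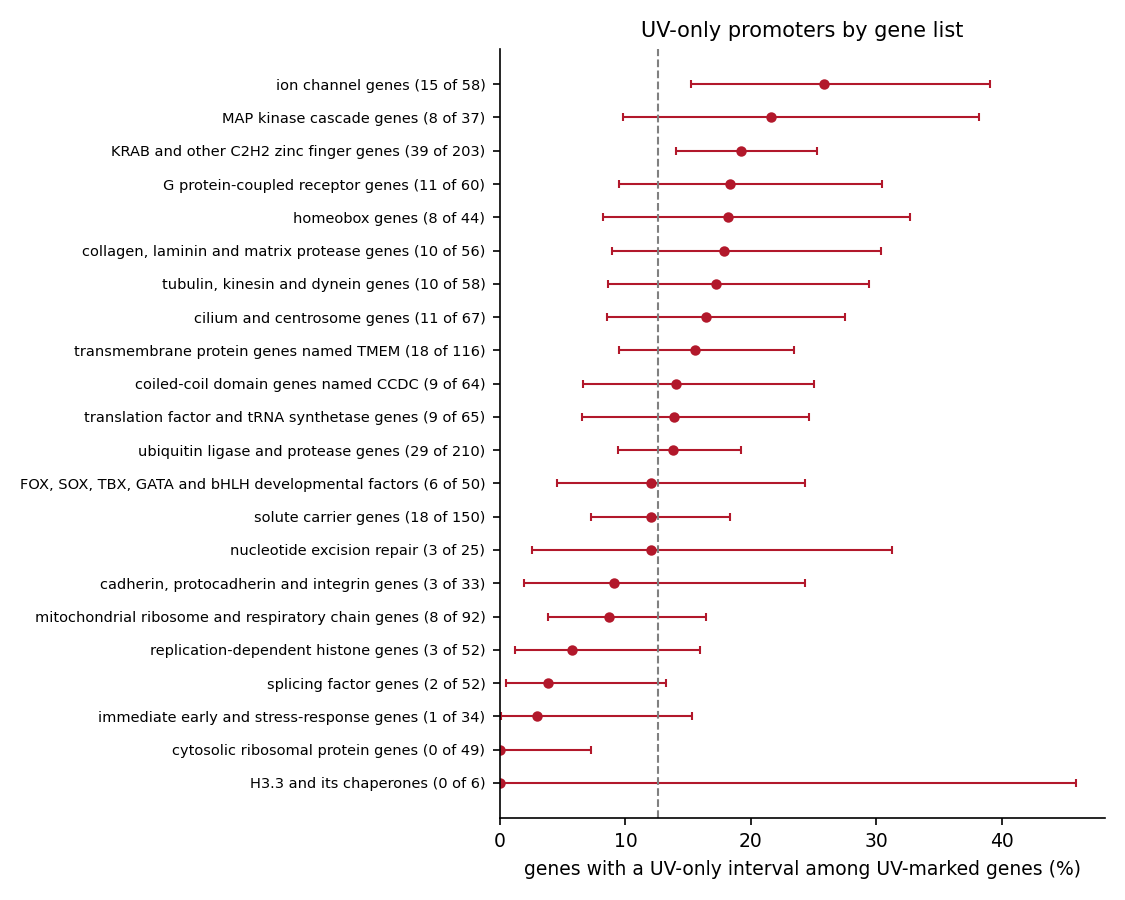
Share of genes with a UV-only promoter interval among the genes with any UV promoter interval in each gene list plotted, with exact 95% intervals for counting error; the numbers in brackets are the genes counted, and the dashed line marks 12.6% over all genes. Ion channel and C2H2 zinc finger genes lie above the line with intervals that do not reach it, and cytosolic ribosomal protein genes lie below it with 0 of 49.

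Short motifs in the 301 bp around the summit were alike in members and shared intervals. The GC box GGGCGG was found on either strand in 769 of 1081 members, or 71.1% (68.3 to 73.8), in 69.8% (68.7 to 70.9) of shared intervals, in 40.2% (34.0 to 46.7) of the reverse set and in 54.4% of windows of the same length at all protein-coding 5′ ends. Among windows with 65 to 75% GC the shares were 75.9%, 75.9%, 69.1% and 82.1%. The CCAAT box, CCAAT, was found in 13.5% (11.5 to 15.7) of members, 12.6% (11.8 to 13.4) of shared intervals, 22.4% (17.3 to 28.2) of the reverse set and 33.8% of all 5′ ends. The TATA box, TATAAA, was found in 2.50% (1.65 to 3.61), 2.43% (2.09 to 2.82), 9.54% (6.15 to 14.0) and 9.22%. The AP-1 site TGACTCA, bound by the FOS and JUN factors that UV induces, was found in 24 members, or 2.22% (1.43 to 3.29), compared with 2.46% (2.11 to 2.85) of shared intervals and 3.93% of all 5′ ends. Matches describe letters in these windows and not bound sites.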

How the data were processed

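H3.3 ChIP-seq peak lists without UV and after UV (3 h, 10 J/m2 UV-C) were analysed, with 1 library per condition. The input libraries were not analysed here. Per the submitters' processing notes, bcl2fastq 2.17, Trimmomatic 3.36, BWA 0.7.12 and MACS 1.4.2 were used with hg38. The lists carry q-values and summits in the form that later MACS versions write, so the version behind them is uncertain. The control and threshold of H3.3 peak calling are not given in the sources used here. Each deposited row gives a score (10 times the −log10 q without decimals in nearly all rows), a fold enrichment (a linear ratio), a −log10 p-value, a −log10 q-value and a summit offset, all computed by the authors within a library. Both lists start at a −log10 q of 1.30. Fold and −log10 q were not tested or subtracted between lists; shares by −log10 q class are shown side by side.

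Rows with equal start and end were merged into intervals (89740 rows after UV and 102949 without UV). Chromosome names and lengths were checked against hg38, and 0 intervals ran past a chromosome end. The 5′ ends were those of GENCODE release 44 protein-coding gene records. GC content and motifs came from hg38, with windows of 150 bp on each side of a summit. A test on simulated lists recovered the rule. Python 3.11.15, pandas 2.3.3, numpy 2.4.6, scipy 1.17.1, matplotlib 3.10.9 and pysam 0.24.0 were used. No test was made, since there was no replicate, and shares have exact Clopper-Pearson 95% intervals.

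Members and lists were chosen with earlier results of these data known. Named genes were the 10 members of highest −log10 q, up to 3 of highest −log10 q per gene list, those at the limits of the rule (some genes and 1 list are not reported here), and those of extreme width, GC content or distance to the other list; further members of a list, 3 genes on chromosome X and gene pairs were named after their values were seen. Alternatives were a distance of 500 bp or 2 kb, distance from the summit, the start of any transcript, a gap of 1 or 10 kb, a −log10 q of at least 3 or 5, and equal numbers of intervals; comparison at equal strength was added after seeing the data.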

Additional observations from a re-analysis of the deposited data

How the results depend on the processing

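The results were the number of members (1081), their share of UV promoter intervals (10.8%), their number per interval of the reverse set (4.49), the median GC content (69.4%), its difference to shared intervals (1.00 percentage points), the difference in median width (−291 bp) and the shares of summits within 250 bp (41.7%) and downstream (71.5%). Of 74 recomputed values, 42 moved by less than counting error or by less than 1.5 times for counts, and 1 changed sign. With a gap of 1 kb the GC difference was −0.0296, with 1841 members, 18.5% and a GC content of 68.4%; with 10 kb the share was 7.38%. With 5′ ends within 500 bp, GC content was 70.3%, the width difference −320.5 bp, 49.9% of summits were within 250 bp and 74.9% downstream. Within 2 kb, the share was 9.92%, GC content 68.3%, its difference 1.72, the width difference −253 bp and 34.7% within 250 bp. With the start of any transcript there were 1900 members, 9.69%, 1.74 per interval of the reverse set, 66.7% GC, a difference of 1.75, −257 bp, 51.8% within 250 bp and 57.0% downstream. A −log10 q of at least 3 gave a share of 10.1%, and at least 5 gave 711 members, 8.61%, 10.3 per interval of the reverse set, −313 bp and 74.96% downstream. Equal numbers of intervals gave 12.3% and summits within 1 kb 11.7%. At equal strength, an alternative added after seeing the data, the GC difference was 6.44 and the width difference −111 bp. The causes were not tested.

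No paired analysis was possible because each condition has 1 library, so that the conditions share fewer than 2 replicate numbers. No replicate was left out for the same reason. Read depth is unknown, and a peak missed in a shallower or less enriched library cannot be told apart from a peak that was absent.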

Other observations

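UV-only intervals outside promoters were more numerous than those at promoters and had another base composition. Most UV intervals lay outside promoters, since 9966 of 77173 were promoter intervals, so these counts do not compare shares. There were 7039 on chromosomes 1 to 22 and X, with a median GC content of 50.7%, a median width of 351 bp and a median −log10 q of 3.91, against 69.4%, 410 bp and 6.65 at the 1081 promoters. The reverse set outside promoters counted 13651 intervals with a median GC content of 47.3%. Outside promoters the list without UV thus held more intervals of its own than the list after UV, whereas at promoters the order was the opposite, 241 against 1081. At promoters these were 2.86% of 8431 intervals without UV and 10.8% of 9966 after UV. The whole lists held 88806 and 77173 intervals. Neither count has a replicate check, and the cause was not tested.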
